A study of Danio rerio with 4 samples.

Results

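The keratins of the enveloping layer were 6 zebrafish genes, krt4, krt5, krt8, krt18a.1, krt18b and krt92, taken by symbol from a fixed list and found among 14792 named genes of the deposited expression table. Each had 1 RefSeq transcript in the table, 6 of 15936 in all. The long-read tables added 1 model for these genes among the 13102 models of the α-amanitin library and 2 among the 12752 of the untreated library. The list was chosen by gene family and, for krt4 and krt18a.1, selected on the large difference in level between the columns of that table, so the expression values below describe the 6 genes and carry no test.

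The series profiled pooled RNA of wild-type zebrafish embryos (AB, TAB14 or TAB5). The α-amanitin group was 1 PacBio long-read library from 15 pooled embryos that had received 0.2 nmol of α-amanitin by injection at the first cleavage stages. This toxin inhibits RNA polymerase and so blocks zygotic genome activation, when the embryo starts to transcribe its own genes. The untreated group was 1 PacBio library from a pool of 15 embryos without injection. The characteristics place both samples at 6 hours post fertilization (hpf). Title and source name instead place the α-amanitin sample at a stage before genome activation, a conflict that the labels do not settle. If the earlier stage were right, stage and treatment could not be told apart. Short-read libraries of untreated embryos at 2.5 and 5.25 hpf also belong to the series, and their per-sample files were not analysed here.

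The expression table has an α-amanitin column and a control column in log2(TPM + 1), where TPM is a transcript level scaled to transcript length and library total. Columns were matched to the groups by name. Gene levels, folds and ranks below are those of RefSeq transcripts, which held 41.2% of the TPM of the α-amanitin column and 44.4% of the control column. The rest lay in transcripts with PacBio identifiers that were not joined to genes, so part of the level of a gene may be missing. Which reads were quantified is not stated in the sources used here. If they were the short reads, the columns would contrast stages and not the treatment. With 1 library per column there is no replicate check on any difference, TPM keeps no read depth, and every statement that a gene was lower or higher compares these 2 columns alone. Since whole embryos were pooled, fewer cells of a type and less RNA per cell cannot be told apart.

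Keratins are the proteins of the intermediate filaments of epithelia. Each filament is built from pairs of a type I and a type II chain, and the chains of simple epithelia are keratin 18 (type I) and keratin 8 (type II). In the zebrafish blastula the outermost cells flatten into the enveloping layer, the first epithelium of the embryo, which covers the deep cells and spreads with them over the yolk during epiboly. Keratin genes are among the classical markers of this layer, and it later becomes the periderm of the skin.

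The genes krt4, krt5, krt8, krt18a.1 and krt92 were lower in the α-amanitin column than in the control column, by 135-fold (krt8) to 955-fold (krt4). The gene krt18b was near 0 in each column. Summed over the 6 genes, the level was 13.2 TPM in the α-amanitin column and 4589 TPM in the control column, 347-fold lower with α-amanitin. The sum made up 0.00321% of the TPM of RefSeq transcripts in the α-amanitin column and 1.03% in the control column. By the count used for all genes, 5 of 6 were at least 2-fold lower with α-amanitin on the log2(TPM + 1) scale, where 22.5% of the 14792 genes were. The list was chosen with earlier results of these data known, and krt4 and krt18a.1 for their difference in this same contrast. Nothing is therefore read from this count. The median log2 ratio (α-amanitin over control) of the 6 was −7.76, and the median over all genes was 0. The share and median over all genes include genes below 1 TPM in each column, which the added 1 TPM holds within 2-fold. Over the 7522 genes of at least 1 TPM in each column the median was 0.49. Folds are of TPM, while log2 ratios are of TPM + 1 and so come out smaller where a level is near or below 1 TPM. The folds of krt4, krt5, krt18a.1 and krt92 rest on α-amanitin levels between 0.651 and 1.67 TPM, at unknown depth.

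The type II chains were krt4, krt5 and krt8. For krt8 (NM_200080), the keratin 8 gene, the level was 8.75 TPM in the α-amanitin column and 1184 TPM in the control column, 135-fold lower with α-amanitin (log2 ratio −6.93). It had the highest level of the 6 in the α-amanitin column and the smallest fold of the 5 that differed. For krt4 (NM_131509), a type II keratin widely used as a marker of surface epithelium in zebrafish, the level was 1.31 TPM in the α-amanitin column and 1255 TPM in the control column, 955-fold lower (log2 ratio −9.08). The list took up krt4 for this difference, so its size is not a finding. For krt5 (NM_131156), the level was 0.688 TPM in the α-amanitin column and 246 TPM in the control column, 358-fold lower (log2 ratio −7.19). It was the least abundant type II chain in each column. The RefSeq annotation also lists krt8 as a synonym of krt4, so the accession and not the symbol separates these genes.

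The type I chains were krt18a.1, krt18b and krt92. For krt18a.1 (NM_178437), a keratin 18 gene, the level was 1.67 TPM in the α-amanitin column and 1377 TPM in the control column, 823-fold lower (log2 ratio −9.01). It was taken into the list for this difference, as krt4 was, and its ratio was close to that of krt4. For krt92 (NM_001017824), which lies among type I keratin genes, the level was 0.651 TPM in the α-amanitin column and 526 TPM in the control column, 808-fold lower (log2 ratio −8.32). The other keratin 18 gene of the list, krt18b (NM_200568), stood at 0.134 TPM in the α-amanitin column and 0.239 TPM in the control column (log2 ratio −0.13). It was thus below 1 TPM in each column and set apart from the other 5, whereas its paralog krt18a.1 was among the most abundant genes of the control column.

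**Figure D1:**
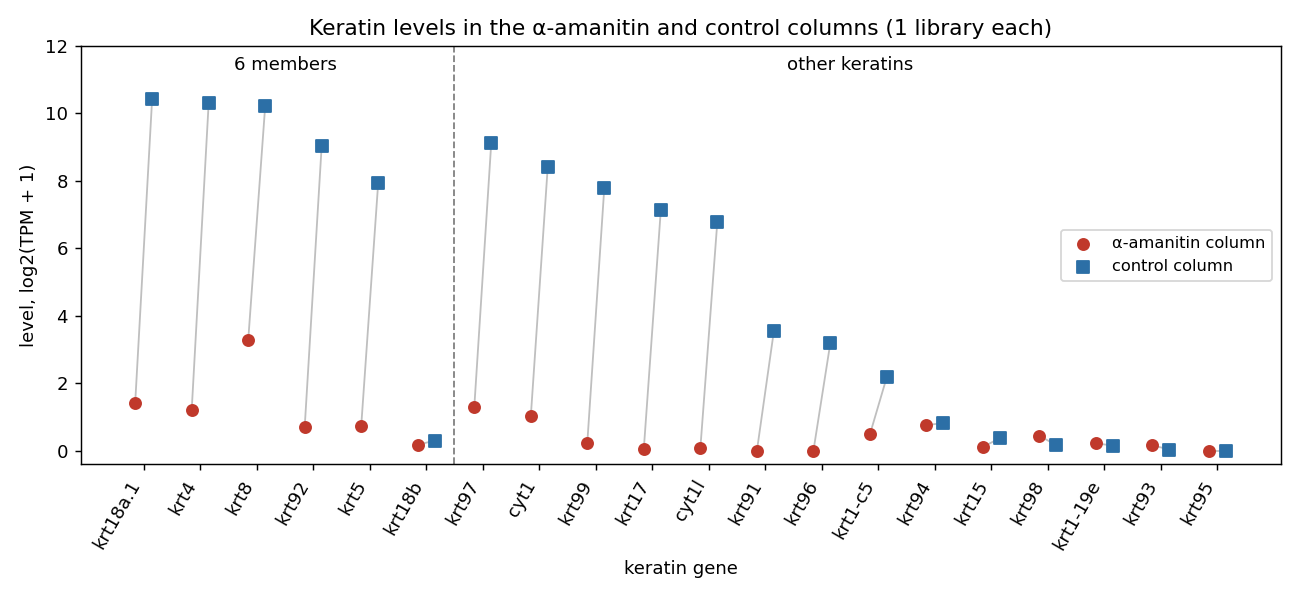
Level of each keratin gene on the log2(TPM + 1) scale, with the α-amanitin column as circles and the control column as squares (1 library each, no error bars), ordered by control level within the 6 members and within the 14 other keratins. The krt18a.1, krt4 and krt8 squares stand together at the top, krt8 has the highest circle at 8.75 TPM, and krt18b lies near 0 in each column.

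The order of the levels differed between the columns. In the control column it was krt18a.1, krt4, krt8, krt92, krt5 and krt18b, with the top 3 between 1184 and 1377 TPM at ranks 20, 22 and 25 among all genes. In the α-amanitin column it was krt8, krt18a.1, krt4, krt5, krt92 and krt18b, and apart from krt8 all stood between 0.134 and 1.67 TPM. Without replicates, neighbours in either order cannot be separated, such as krt5 at 0.688 and krt92 at 0.651 TPM in the α-amanitin column. Of the summed TPM of the 6 genes, krt8 held 66.2% in the α-amanitin column and 25.8% in the control column. The shares of krt18a.1 were 12.7% in the α-amanitin column and 30.01% in the control column, and those of krt4 were 9.95% and 27.4% in the same order. The krt5 share was similar, at 5.21% in the α-amanitin column and 5.36% in the control column.

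**Figure D2:**
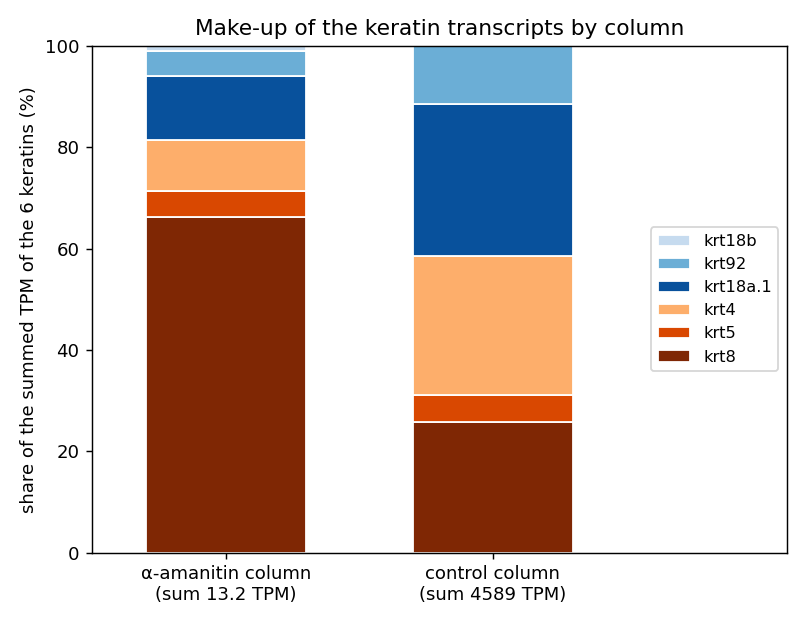
Share of each gene in the summed TPM of the 6 keratins, in percent, for the α-amanitin column (left bar, sum 13.2 TPM) and the control column (right bar, sum 4589 TPM); type II chains are brown to orange and type I chains blue. In the α-amanitin bar krt8 takes 66.2%, while in the control bar krt18a.1, krt4 and krt8 hold similar shares between 25.8% and 30.01%.

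Since filaments need chains of each type, the sums by type were set side by side. The type II genes krt4, krt5 and krt8 summed to 10.7 TPM in the α-amanitin column and 2685 TPM in the control column. The type I genes krt18a.1, krt18b and krt92 summed to 2.46 TPM in the α-amanitin column and 1903 TPM in the control column. The ratio of type II to type I was thus 4.37 in the α-amanitin column and 1.41 in the control column. In the α-amanitin column the lead of type II rests on krt8, at 8.75 TPM. Without krt8, the levels of krt4 (1.31 TPM) and krt5 (0.688 TPM) together would not exceed the type I sum. These low levels come from 1 library of unknown depth. All 20 genes of the table with a keratin symbol were then summed, and keratins under other names would be missed. Of the 20, 17 were taken as type I by name or by their neighbours and not by sequence. Of these 17, krt95 has no other keratin gene near it in gene order, but at 0 TPM in each column it adds nothing to the sums. With all 20, the ratio was 1.52 in the α-amanitin column and 0.816 in the control column. In the control column type II thus led among the 6 members and type I among all 20. The type II genes were the same 3 in each set, so the added type I genes could only lower the ratio. Which type leads therefore depends on the genes listed.

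The table held 14 other genes with a keratin symbol. Of these, 8 were at least 2-fold lower with α-amanitin (22.5% over all genes) and 0 were at least 2-fold higher (25.7% over all genes). The other 6 were at or below 0.780 TPM in each column. Their summed level was 4.64 TPM in the α-amanitin column and 1386 TPM in the control column, and their median log2 ratio was −2.45. The most abundant was krt97, with 1.46 TPM in the α-amanitin column and 554 TPM in the control column (log2 ratio −7.82). The type I cytokeratin gene cyt1, known from the enveloping layer, stood at 1.04 TPM in the α-amanitin column and 341 TPM in the control column (−7.39). For krt99 the levels were 0.189 TPM with α-amanitin and 219 TPM in the control (−7.53), and for krt17 they were 0.0494 and 139 TPM in the same order (−7.06). The cyt1-like gene cyt1l stood at 0.0574 TPM with α-amanitin and 109 TPM in the control (−6.70). The α-amanitin column listed krt91 and krt96 at 0, where the control column had 10.7 and 8.18 TPM, so no fold is given for them. The remaining gene past 2-fold, krt1-c5, had 0.406 TPM with α-amanitin and 3.58 TPM in the control. Among the 6 low genes krt95 was listed at 0 in each column.

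Keratin genes lie in runs in the genome, and the runs differed in how many of their genes were at least 2-fold lower with α-amanitin (22.5% over all genes). The members were chosen with earlier results of these data known, so nothing is read from these counts. By gene order in the RefSeq annotation of assembly GRCz12tu, krt5, krt8, krt18a.1 and krt18a.2 follow each other with no other protein-coding gene between them. The 3 of this run in the table, all members, were at least 2-fold lower with α-amanitin and summed to 11.1 TPM in the α-amanitin column and 2807 TPM in the control column. The member krt92 lies in a run of 7 keratin genes with krt1-19d, krt1-19e, cyt1l, cyt1, krt17 and krt91. Of 6 in the table, 5 were lower, with a sum of 1.96 TPM in the α-amanitin column and 1126 TPM in the control column, and krt1-19e, which directly precedes krt92, stood at 0.170 and 0.118 TPM. The members krt4 and krt18b have 1 protein-coding gene between them, zgc:158846, at 1.79 TPM with α-amanitin and 0.449 TPM in the control. In the run krt222, krt97 and krt96, the 2 in the table were lower, with a sum of 1.46 TPM with α-amanitin and 562 TPM in the control. Of the run krt93, krt94, krt98, krt15 and krt99, the last alone passed 2-fold. Neighbours within a run thus differed in level. Genes directly outside the krt5 to krt18a.2 run did not share its difference, since zgc:171775 had 0.998 TPM with α-amanitin and 1.70 TPM in the control, and eif4ba had 31.7 and 12.8 TPM in the same order. The gene directly before the run of krt92, si:dkeyp-113d7.1, was lower, at 9.03 TPM with α-amanitin and 25.2 TPM in the control (log2 ratio −1.38). Beyond krt18b, scn8ab had 0.576 TPM with α-amanitin and 0.191 TPM in the control, and tmt1a.1 had 0 and 21.7 TPM in the same order. Keratin paralogs resemble each other, and how the authors' quantification divided reads between them is not stated, so the levels of single paralogs are less certain than their sums.

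The genes nearest to each member were taken as those at the smallest distance in the plane of the log2(TPM + 1) values of the 2 columns. The gene nearest to krt4 was krt18a.1, at a distance of 0.25, followed by akap12b at 0.36 (1.19 TPM with α-amanitin and 983 TPM in the control). The gene nearest to krt18a.1 was likewise krt4, and 4 genes lay within a distance of 1 of each. Both krt4 and krt18a.1 were taken into the list for their difference between these same columns, so their nearness is not a finding. For krt8 the nearest was eif4a1a at 0.62, with 7.58 TPM in the α-amanitin column and 784 TPM in the control column, and no other gene lay within 1. For krt92 the nearest were afp4 (0.26) and asb11 (0.27) among 28 genes within 1. For krt5 they were zgc:153018 (0.15) and nr0b2a (0.25) among 54. Around krt18b, near the origin, 4195 genes lay within 1, so its nearest genes, jac8 and bgna, say little. A distance over 2 columns describes level and ratio and no more.

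Other genes known from the enveloping layer were mostly lower with α-amanitin as well. Of 33 genes listed outside the keratins, 28 were in the table, with a median log2 ratio of −4.03. Of these, 22 were at least 2-fold lower (22.5% over all genes), 4 at least 2-fold higher (25.7% over all genes) and 2 in between. The list was chosen with earlier results of these data known, so nothing is read from these counts. Among junction and plakin genes, 8 of 11 were lower. The tight junction gene cldne (claudin e) stood at 0.136 TPM with α-amanitin and 381 TPM in the control (log2 ratio −8.39), and the envoplakin gene evpla at 0.0885 and 118 TPM (−6.77). The desmosomal genes pkp3a (plakophilin 3) and jupa (plakoglobin) and the tight junction gene tjp3 had ratios of −4.88, −4.23 and −4.09. Against this list, epcam, an epithelial adhesion gene, was at 2437 TPM with α-amanitin and 981 TPM in the control (1.31; 0.83 after scaling to the median ratio). The claudin gene cldn7b was at 131 TPM with α-amanitin and listed at 0 in the control, although each long-read library held 1 model of it. The cadherin gene cdh1 stood at 196 TPM with α-amanitin and 253 TPM in the control.

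Among transcriptional regulators of the enveloping layer and surface ectoderm, 9 of 10 were at least 2-fold lower (22.5% over all genes). The Krüppel-like factor gene klf17 stood at 1.18 TPM with α-amanitin and 121 TPM in the control (log2 ratio −5.80), the grainyhead-like gene grhl1 at 0.332 and 53.7 TPM (−5.36), and cebpb at 4.13 and 166 TPM (−5.02). The AP-2 genes tfap2c and tfap2a had ratios of −5.19 and −4.51. The GATA factor gene gata3 was listed at 0 with α-amanitin and at 17.4 TPM in the control.

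Among other genes of the layer, 5 of 7 were at least 2-fold lower (22.5% over all genes). The annexin gene anxa1a stood at 1.33 TPM with α-amanitin and 399 TPM in the control (log2 ratio −7.42), and the calpain gene capn9 at 0.388 and 97.95 TPM (−6.16). The annexin gene anxa1b had a ratio of −3.43, and anxa1c was listed at 0 with α-amanitin and at 30.9 TPM in the control. The cofilin-like gene cfl1l had 13.6 TPM with α-amanitin and 38.5 TPM in the control (−1.43). The membrane protease gene st14a (matriptase) was higher, at 80.6 TPM with α-amanitin and 38.5 TPM in the control (1.05; 0.56 after scaling), while the gene of its inhibitor, spint1a, stood at 94.0 and 115.5 TPM (−0.29).

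Lower levels were not limited to the enveloping layer. Of 6 deep cell genes, 6 were at least 2-fold lower (22.5% over all genes), with a median log2 ratio of −7.16. Their summed level was 6.10 TPM in the α-amanitin column and 1884 TPM in the control column. Their ratios ran from −8.21 (tbx16) to −6.48 (chrd), with tbxta, vox, noto and sox3 between, and overlapped the range of the 5 lower keratins (−9.08 to −6.93). Of 6 yolk syncytial layer genes, 6 were lower too (median −4.86), with a sum of 3.26 TPM with α-amanitin and 2656 TPM in the control, most of it apoeb (log2 ratio −9.49), and mxtx1, gata5 and mxtx2 between −6.10 and −4.12. No marker of these lists was listed at 0 in either column. Ratios of the size seen in the keratins were thus present among markers of other embryonic layers, and the part of cell makeup in the keratin difference was not tested.

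Of 16 other intermediate filament genes in the table, 5 were at least 2-fold lower and 1 higher, against 22.5% lower and 25.7% higher over all genes, and the median log2 ratio was −0.18. The 10 in between were, apart from lmnb1, all below 1 TPM in each column. There the 1 TPM added to each level holds the log2 ratio near 0, so the median does not speak for the expressed genes. The difference of the 16 genes from the keratins was not tested. The nuclear lamin genes were the abundant ones, with lmnb1 at 104 TPM with α-amanitin and 135 TPM in the control, and lmnb2 at 56.9 and 207 TPM (−1.85). The gene lmna had 6.36 TPM with α-amanitin and 22.2 TPM in the control (−1.65). The lamin LIII gene lmnl3, coding for a lamin of eggs and early embryos, was higher, at 308 TPM with α-amanitin and 21.4 TPM in the control (3.78). Among the cytoplasmic filament genes, vim had 0.294 TPM with α-amanitin and 9.59 TPM in the control, and none reached 10 TPM in either column.

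**Figure D3:**
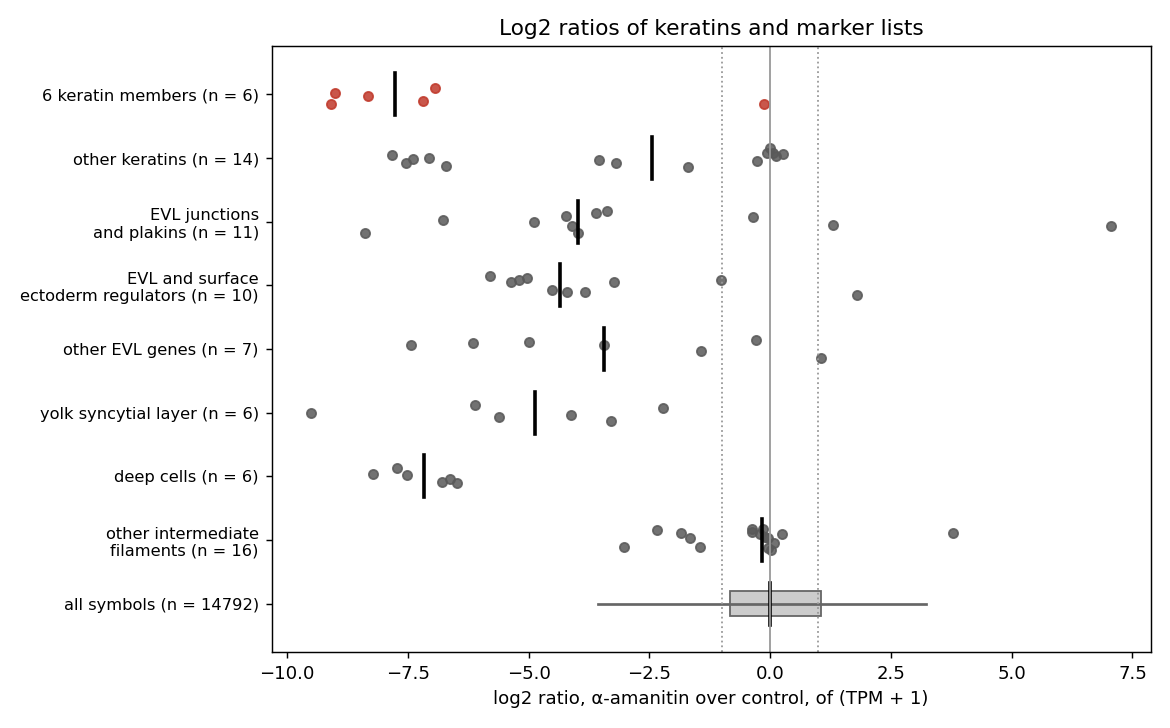
Log2 ratio of (TPM + 1), α-amanitin over control, with 1 point per gene for the 6 keratins and 7 other lists (EVL, enveloping layer), and for all 14792 symbols a bar from the lower to the upper quartile with a line from the 5th to the 95th percentile. Black ticks are medians, and dotted lines mark 2-fold; 5 of the 6 keratins lie between −9.08 and −6.93, near the deep cell genes, and krt18b lies at −0.13.

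The long-read models describe the keratins by transcript structure and not by level. Whether the expression table rests on the same libraries is not stated in the sources used here. Among the 6 members, 1 model in the α-amanitin library named krt8, and 1 model each in the untreated library named krt4 and krt5. Over all symbols, 44.3% had a model with α-amanitin and 43.6% without. The keratin 18 gene krt18a.1, at 1377 TPM the most abundant member in the control column, had 0 models in each library, as did krt18b and krt92. Models are collapsed structures with no read numbers, so 1 model can stand for any number of reads.

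All 3 member models were fragments lying within the reference transcript (Cuffcompare class c). The krt8 model of the α-amanitin library was 989 bases long against a reference of 2167 bases, or 45.6% of it, and 65.2% of the 1886 class c models of that library covered as little or less of their reference. In the untreated library the krt5 model had 541 of 2379 bases (22.7%) and the krt4 model 372 of 2480 bases (15.0%). Of the 1970 class c models of the untreated library, 28.5% covered no more than the krt5 model and 14.8% no more than the krt4 model. Thus no member had a model that followed all introns of its reference. Among the other keratins, krt91 had such a model (class =) in the untreated library, with 1339 of 1508 bases (88.8%), although its level was 10.7 TPM in the control column. The gene krt95, listed at 0 in each column of the expression table, also had a model in the untreated library, which shared a splice junction with the reference and differed from it in structure (class j; 1128 against 1525 bases). Transcripts with PacBio identifiers are counted separately in that table and were not joined to genes, so a listed 0 for a RefSeq transcript does not mean that the gene had no reads.

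**Figure D4:**
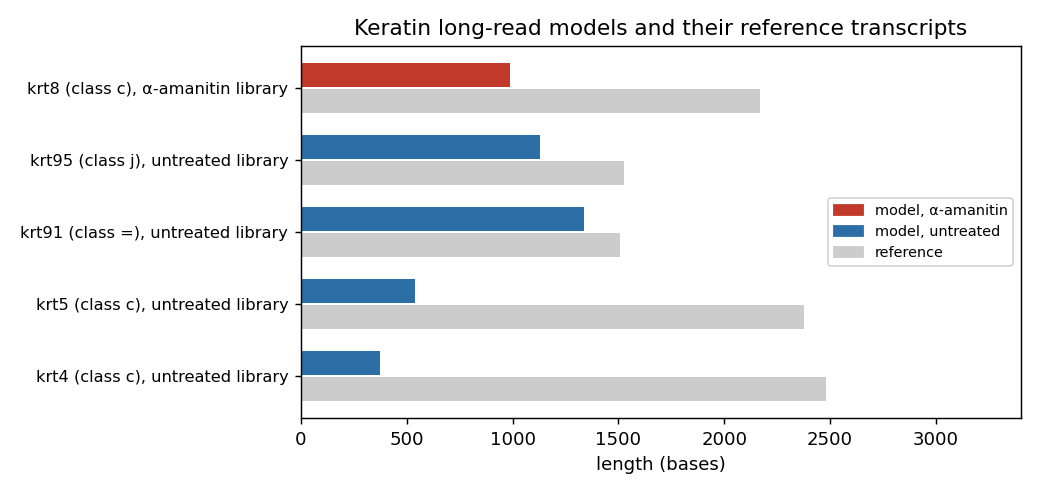
Length in bases of each keratin long-read model (coloured, upper bar of each pair) and of the reference transcript it was matched to (grey), with the α-amanitin library first. The krt8, krt5 and krt4 models cover 45.6%, 22.7% and 15.0% of their references, and krt91 covers 88.8%.

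The few keratin models were set against genes of similar level. In all, 157 genes had at least 100 TPM in the control column and under 10 TPM in the α-amanitin column, the 5 lower members among them. Of the 157, 26.1% had a model with α-amanitin and 23.6% in untreated embryos. Of 352 genes with at least 100 TPM in each column, the shares were 91.5% and 91.2% in the same order. The 1 of 5 members (α-amanitin library) and 2 of 5 (untreated library) with a model are too few to be told apart from the 157. At 1000 TPM or more in the control column and under 10 TPM in the α-amanitin column, there were 5 genes: krt4, krt8, krt18a.1, apoeb and hspb1. Of these, krt8 was found with α-amanitin, krt4 and hspb1 in untreated embryos, and krt18a.1 and apoeb in neither library. The share of the 157 genes with a model was thus no higher in untreated embryos than with α-amanitin.

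**Figure D5:**
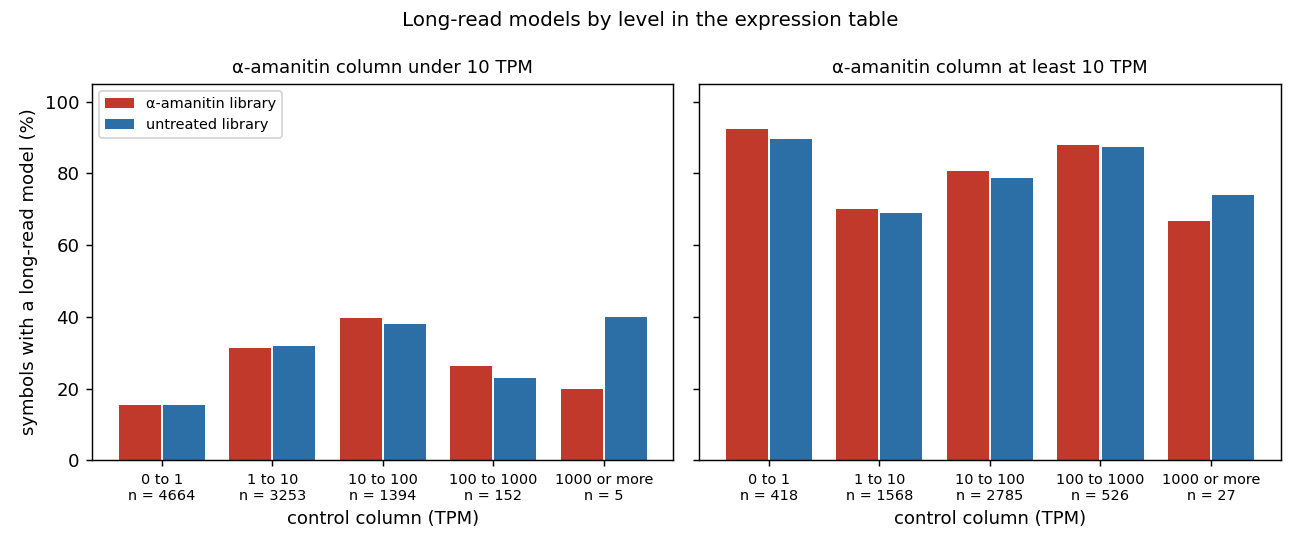
Percent of symbols with at least 1 long-read model with α-amanitin (left bar of each pair) and in untreated embryos (right bar), by level in the control column in TPM, for symbols under 10 TPM in the α-amanitin column (left panel) and at or above it (right panel). In the left panel, genes at 100 to 1000 TPM in the control column, krt5 and krt92 among them, reach 26.3% and 23.0%, and the 5 genes of 1000 TPM or more, krt4, krt8 and krt18a.1 among them, reach 20% and 40% (1 and 2 genes); at 100 to 1000 TPM in the right panel the shares are 88.0% and 87.5%.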

How the data were processed

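Per the series description, the authors assembled long reads into transcripts with IsoSeq, mapped them to GRCz10 with GMAP and compared them with a reference transcriptome with Cuffcompare; versions are not given in the sources used here. The deposited Cuffcompare tables give each model's class code and the other measure used, its length in bases beside that of the matched reference transcript; their FPKM columns were 0 for every model and were not used. The deposited expression table holds log2(TPM + 1) values for 32575 transcripts, a unit read from the values, since TPM summed to 1000000 in each column; the submitters' processing notes name kallisto and bcl2fastq without a role. The depth is unknown.

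Values were turned back to TPM, and the RefSeq transcripts of a symbol were summed. Symbols came from the Cuffcompare tables (7695 transcripts) or else from the RefSeq annotation of GRCz12tu, for 15455 of 15936 RefSeq transcripts (97.0%). The 16639 PacBio transcripts were not joined to genes. The log2 ratio was that of (α-amanitin TPM + 1) to (control TPM + 1), which understates the change of low genes, and the threshold was 2-fold. Folds of named genes were taken on TPM without the pseudocount. With 1 library per group there is no test and no interval for expression. Scaling subtracts 0.49, the median log2 ratio of the 7522 symbols of at least 1 TPM in each column.

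The members and lists were chosen with earlier results of these data known. Named genes were the members, the up to 6 genes per list with the largest ratio among those of at least 10 TPM in a column, and any gene past 2-fold against its list, of which 1 is not reported here; a few others (krt96, krt1-c5, krt95, cdh1, spint1a, vim and genes beside a member) were named after their values were seen. Of the listed genes, 8 were not in the table used here. Runs of keratin genes allowed up to 5 other protein-coding genes between neighbours. Alternatives were a pseudocount of 0.1 TPM, scaling, 1 transcript per symbol, 4-fold, a minimum of 1 TPM, and stricter choices of models. The code for counts and medians of the ratio was checked on simulated data without noise, which cannot speak for the observed values. Computations used Python 3.11.15, numpy 2.4.6, pandas 2.3.3 and matplotlib 3.10.9.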

Additional observations from a re-analysis of the deposited data

How the results depend on the processing

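The count of 5 keratins at least 2-fold lower was the same under a pseudocount of 0.1 TPM, scaling, 1 transcript per symbol, 4-fold and a minimum of 1 TPM. That minimum leaves out krt18b, so the count there is not out of 6. The 5 had log2 ratios between −9.08 and −6.93, far past either threshold, so nothing is read from the unchanged count. Each member has 1 RefSeq transcript, so taking 1 transcript per symbol could not move any member. A pseudocount of 0.1 TPM gave medians of −8.87 (members), −4.62 (other keratins) and −5.07 (enveloping layer genes), and 1 other keratin (krt98) higher. Scaling gave −8.24, −2.94 and −4.52 in the same order, by construction, and left 2 enveloping layer genes at least 2-fold higher, where 4-fold left 1. A minimum of 1 TPM moved the median of the other keratins to −6.88, since it removes low genes. Choices made after the data were seen were leaving out krt4 and krt18a.1 (median of the members −7.06), leaving out genes listed at 0 in either column (other keratins −1.70, enveloping layer genes −3.97) and leaving out krt92, which moved type II over type I to 5.95 (α-amanitin) and 1.95 (control). With all 20 keratins this ratio was 1.52 and 0.816. Class codes = and j alone, or at least 2 models per gene, left 0 members with a model in each library, and models of at least 500 bases left 1 in the untreated library (krt5). Of 73 values under alternatives, 39 were equal to the reported value or, for counts, within 1.5 times of it, and 34 others differed. Of the 73, 0 changed sign, which counts and the type II over type I ratio could not do by construction. In the control column that ratio went from 1.41 to 0.816 with all 20 keratins, so the leading type changed. Only type I genes were added there, so the ratio could only fall. Within the limit of 1.5 times, the other keratins at least 2-fold lower numbered 6 to 9 and the enveloping layer genes 20 to 22. No paired analysis was possible because each group has 1 sample. No replicate could be left out for the same reason.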
